A study of Homo sapiens with 4 samples.

Results

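Purine, pyrimidine and dNTP synthesis was examined as a set of 34 genes, taken from the deposited table of 20263 genes by matching gene identifiers to listed symbols. The rule used no measured value, but the list was chosen with earlier results of these data known. All 34 symbols were found and all 34 had enough counts to be tested. The cells were HCT116, an established line from a human colon cancer. They received the compound N_12 for 24 h (2 libraries) or DMSO for the same time (2 libraries), and their mRNA was sequenced. The series title calls N_12 a derivative of nilotinib and names proliferation and migration of colon cancer cells as its subject. No dose is stated in the labels, and the tag for treatment names another code, HJJ_3_5, for the N_12 samples. Groups therefore follow the sample titles, and the samples called N_12 here are those so titled. All libraries come from a single cell line, and the labels do not say whether the replicates were separate cultures, so the p-values reflect variation among these libraries alone, and that variation may be technical.

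Purine nucleotides are built on a ribose phosphate up to inosine monophosphate (IMP), from which separate branches lead to AMP and GMP. Pyrimidines are built as a free ring that is then joined to ribose phosphate to give UMP, and CTP is made from UTP. Ribonucleotide reductase turns ribonucleoside diphosphates into the deoxy forms used for DNA, and thymidylate is made in a step of its own from dUMP. Dividing cells draw on both ring pathways, and many of the enzymes are targets of antimetabolite drugs used in colon and other cancers.

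Total counts were 41717938 and 39865327 in N_12 replicates 1 and 2, against 31120459 and 29769568 in DMSO replicates 1 and 2. Each member had between 215 and 27098 counts per library, and the 34 together took 0.373% and 0.382% of all counts in N_12 libraries, against 0.389% and 0.368% in DMSO libraries. Of 8 epithelial and colon markers, 5 were abundant enough to test (EPCAM, CDH1, KRT8, KRT18 and KRT19), and the intestinal factor CDX1 was at 0 in every library. The summed level of those markers was 3361 to 3756 counts per 1000000 (CPM) in N_12 and 4010 to 4501 CPM in DMSO. Of 6 leukocyte markers CD68 alone was testable and PTPRC, CD3E and HBB were at 0 (sum 42.9 to 49.2 CPM in N_12, 34.5 to 40.6 CPM in DMSO). Of 6 fibroblast markers COL1A1 alone was testable and COL1A2, DCN and LUM were at 0 (56.1 to 61.6 CPM in N_12, 60.5 to 63.6 CPM in DMSO). The 4 endothelial markers summed to 0.839 to 2.41 CPM in N_12 and 1.44 to 1.57 CPM in DMSO, with VWF and KDR testable. The part of these markers in the results below was not tested.

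The comparison asked which nucleotide synthesis transcripts differed between N_12 and DMSO cells. CTPS1, which makes CTP, was 1.83-fold higher in N_12, and GUK1, which phosphorylates GMP, was 1.99-fold lower. These were the 2 members of 34 (5.88%) called by edgeR's quasi-likelihood test at a Benjamini-Hochberg adjusted p under 0.05 over all 14105 tested genes. Over all tested genes 2.25% were called, 0.822% as higher and 1.43% as lower. The median log2 fold change of N_12 over DMSO was 0.11 for the members and 0.01 for all tested genes, and 22 members lay above 0 (64.7%, against 51.0% of all genes). An unadjusted p under 0.05 was reached by 12 members (35.3%), 8 on the higher and 4 on the lower side, against 21.8% of all genes (11% higher and 10.8% lower). Both N_12 libraries lay above both DMSO libraries for 15 members, against 27.9% of all genes, and below both for 6, against 26.8%. Differences were small in size. No member differed by 2-fold, and 4 differed by more than 1.5-fold, namely CTPS1, PFAS and GART above 0 and GUK1 below 0. In bulk RNA, fewer cells with a transcript and less of it per cell cannot be told apart.

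**Figure D1:**
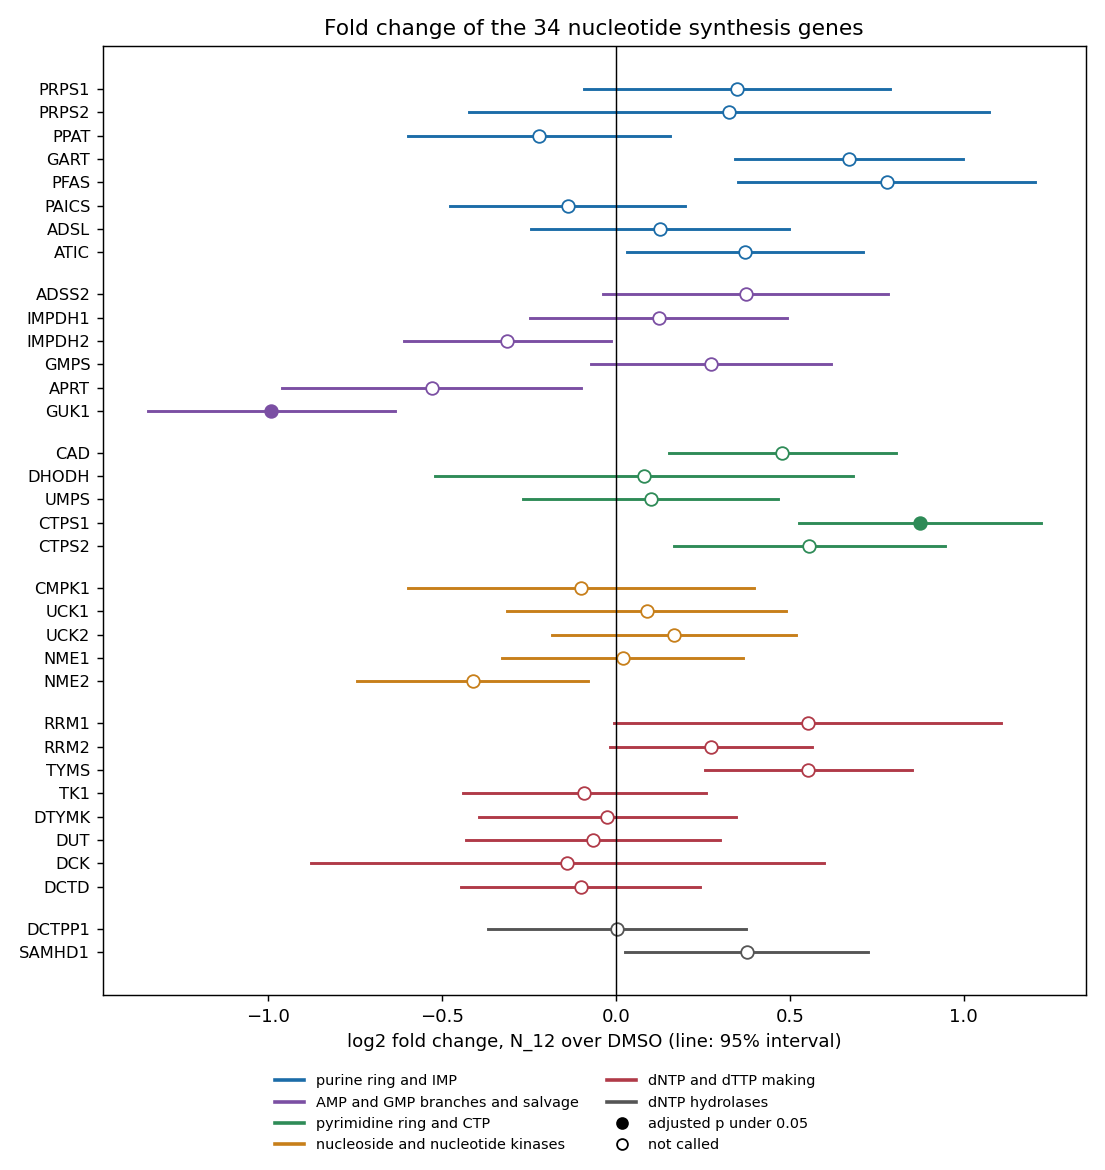
Log2 fold change of N_12 over DMSO for the 34 genes by role (points), with 95% intervals (lines), from edgeR on 4 libraries. Filled points mark the called genes, CTPS1 at 0.87 and GUK1 at -0.99; the intervals of GART, PFAS, TYMS, CAD, CTPS2, SAMHD1 and ATIC also lie wholly above 0, and those of APRT, NME2 and IMPDH2 wholly below 0.

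CTPS1 (ENSG00000171793) encodes CTP synthase, which aminates UTP with glutamine and limits CTP supply in dividing cells. On TMM-scaled libraries it stood at 40.7 and 39.7 CPM in N_12 replicates 1 and 2, against 22.2 and 21.6 CPM in DMSO replicates 1 and 2. Replicates lay close together and the groups were far apart, with means of 40.2 ± 0.706 CPM in N_12 and 21.9 ± 0.45 CPM in DMSO (SD, n = 2 each). The log2 fold change was 0.87 (SE 0.15, 95% interval 0.53 to 1.22, edgeR adjusted p = 0.0319). GUK1 (ENSG00000143774), guanylate kinase, converts GMP and dGMP to their diphosphates. It had 62.6 and 72.9 CPM in N_12 libraries, against 146 and 124 CPM in DMSO libraries. Means were 67.8 ± 7.22 CPM in N_12 and 135 ± 15.6 CPM in DMSO (SD, n = 2 each), a log2 fold change of -0.99 (SE 0.15, 95% interval -1.35 to -0.64, edgeR adjusted p = 0.0237). The sizes held with any library left out, at 0.84 to 0.90 for CTPS1 and -1.11 to -0.87 for GUK1 on the log2 scale, but the calls did not. By edgeR, CTPS1 had adjusted p = 0.0939 without DMSO replicate 1, 0.0901 without DMSO replicate 2, 0.139 without N_12 replicate 1 and 0.148 without N_12 replicate 2. GUK1 had adjusted p = 0.0567, 0.0108, 0.139 and 0.137 in the same order. On all 4 libraries, limma-voom (0.929% of all genes called) called neither gene (adjusted p = 0.0548 for CTPS1 and 0.0510 for GUK1), and DESeq2 (8.68% of all genes called) called both (2.65e-05 and 3.24e-06). Over all alternatives tried, adjusted p ran from 2.65e-05 to 0.148 for CTPS1 and from 3.24e-06 to 0.139 for GUK1.

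The promoters of these genes and of GART, the member with the next smallest p, are shown because they are the DNA in front of the transcripts with the clearest differences. Each run is the 250 bases before the gene's start in RefSeq's table for GRCh38.p14, written 5′ to 3′ on the gene's strand. Capitals mark GGGCGG, the GC box of SP-family factors, and CCAAT, the site of NF-Y, on either strand, so CCGCCC and ATTGG are the same motifs read from the other strand. CTPS1 lies at chr1:40979446-40979695 (plus strand), GUK1 at chr1:228139834-228140083 (plus strand) and GART at chr21:33542893-33543142 (minus strand).
CTPS1: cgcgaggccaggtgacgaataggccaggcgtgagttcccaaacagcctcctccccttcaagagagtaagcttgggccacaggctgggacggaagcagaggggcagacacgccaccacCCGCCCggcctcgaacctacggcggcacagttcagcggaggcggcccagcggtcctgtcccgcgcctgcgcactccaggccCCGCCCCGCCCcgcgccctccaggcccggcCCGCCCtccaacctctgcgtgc
GUK1: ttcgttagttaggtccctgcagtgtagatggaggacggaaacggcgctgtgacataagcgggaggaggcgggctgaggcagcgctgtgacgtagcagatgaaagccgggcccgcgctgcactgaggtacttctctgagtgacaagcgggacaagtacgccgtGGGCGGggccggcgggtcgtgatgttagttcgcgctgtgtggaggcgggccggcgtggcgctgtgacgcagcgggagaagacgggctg
GART: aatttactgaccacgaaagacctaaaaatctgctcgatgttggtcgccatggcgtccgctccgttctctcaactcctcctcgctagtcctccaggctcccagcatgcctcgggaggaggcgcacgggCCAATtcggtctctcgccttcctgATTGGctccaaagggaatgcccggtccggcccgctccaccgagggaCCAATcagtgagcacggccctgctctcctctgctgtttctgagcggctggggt

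The CTPS1 window held 4 GC box matches, 2 of which overlap by a base, and the GUK1 window held 1. The GART window held 3 CCAAT matches and no GC box. RefSeq's table had a window for 32 of the 34 members. Of these 32, 21 held GGGCGG and 10 held CCAAT, against 42.6% and 32.0% of 35116 windows of the same length. Those windows were not limited to the 14105 tested genes, so they are no matched background for the members. The E-box CACGTG, bound by MYC among others, was in 5 member windows (PPAT, ATIC, DHODH, DCK and DCTPP1), against 6.34% of all windows. An E2F octamer (TTTGGCGC, TTTCCCGC, TTTGCCGC or TTTCGCGC) was in those of PRPS2 and TYMS, against 2.79% of all. The ATF4-type element TGATGNAA was in that of DCTD (3.14% of all) and the NRF1 core GCATGCGC in that of UCK1 (2.63% of all). Both strands were searched for each motif, and a match describes letters, not binding.

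Of the 8 genes that build the purine ring up to IMP, none was called and 6 lay above 0, with a median log2 fold change of 0.34. GART, a protein that carries 3 activities of the pathway, had 136 and 119 CPM in N_12 libraries, against 76.7 and 83.3 CPM in DMSO libraries. Its groups did not overlap, and it missed the threshold narrowly (0.67, SE 0.14, 95% interval 0.34 to 1.0, edgeR adjusted p = 0.0564). PFAS, which adds the second nitrogen from glutamine, had 30.5 and 39.1 CPM in N_12, against 21.9 and 18.7 CPM in DMSO (0.78, SE 0.18, interval 0.35 to 1.2, edgeR adjusted p = 0.0725). ATIC, which closes the ring in the last steps, had 65.1 and 65.3 CPM in N_12, against 47.8 and 53.0 CPM in DMSO (0.37, SE 0.15, interval 0.03 to 0.71). Of the 8 genes, 4 had both N_12 libraries above both DMSO libraries, namely these 3 and PRPS1. Over all tested genes 27.9% did so. DESeq2 called GART (adjusted p = 0.00184) and PFAS (0.00984). Over the alternatives edgeR's and the other tools' adjusted p ran from 0.00184 to 0.240 for GART and from 0.00984 to 0.209 for PFAS.

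PPAT, the amidotransferase that commits ribose phosphate to purines, lay on the other side of 0. It had 52.4 and 42.9 CPM in N_12, against 53.8 and 57.1 CPM in DMSO (-0.22, SE 0.16, interval -0.60 to 0.16). PAICS, whose enzyme acts in the middle of the pathway, is a head-to-head neighbour of PPAT. Its level was 253 and 210 CPM in N_12, against 240 and 271 CPM in DMSO (-0.14, interval -0.48 to 0.20), so its groups overlapped. For both genes N_12 replicate 2 was the lowest library and DMSO replicate 2 the highest. ADSL, which acts in ring synthesis and again on the way to AMP, had 49.6 and 43.7 CPM in N_12, against 45.6 and 39.9 CPM in DMSO (0.13, interval -0.25 to 0.50). The ribose phosphate activating enzymes PRPS1 (0.35, interval -0.09 to 0.79) and PRPS2 (0.32, interval -0.42 to 1.07) had wide intervals. PRPS2 had 46.4 CPM in N_12 replicate 1 and 24.6 CPM in N_12 replicate 2, on either side of its 29.3 and 27.4 CPM in DMSO.

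Of the 6 genes of the AMP and GMP branches and of purine base salvage, GUK1 was called lower and no gene was called in the other direction. IMPDH2, the main IMP dehydrogenase of dividing cells and the entry to GMP, was abundant, with 525 and 556 CPM in N_12, against 709 and 634 CPM in DMSO. Every N_12 value was under every DMSO value (-0.31, SE 0.13, interval -0.61 to -0.02, edgeR adjusted p = 0.210). Its isozyme IMPDH1 had 77.2 and 96.1 CPM in N_12, against 84.1 and 75.1 CPM in DMSO, with overlapping groups (0.12, interval -0.25 to 0.49). APRT, which salvages adenine, had 57 and 78.3 CPM in N_12, against 105 and 90.0 CPM in DMSO (-0.53, SE 0.19, interval -0.96 to -0.10, edgeR adjusted p = 0.161). GMPS, which aminates xanthosine monophosphate to GMP, lay above 0 (0.27, interval -0.07 to 0.62), as did ADSS2 at the entry to AMP (0.37, interval -0.04 to 0.78). Along the 3 steps of the guanine route after IMP, estimates differed in sign. IMPDH2 and GUK1 lay below 0, and IMPDH1 and GMPS lay above 0 with intervals that included 0.

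All 5 genes of pyrimidine ring and CTP synthesis had a log2 fold change above 0 (median 0.48), and CTPS1 was the 1 called. CAD, the protein with the first 3 activities of the pathway, had 131 and 154 CPM in N_12, against 105 and 99.8 CPM in DMSO. The groups did not overlap (0.48, SE 0.14, interval 0.15 to 0.81, edgeR adjusted p = 0.115). CTPS2, the second CTP synthase, had 18.9 and 17.7 CPM in N_12, against 12 and 12.9 CPM in DMSO (0.56, SE 0.17, interval 0.17 to 0.95, edgeR adjusted p = 0.121). Both CTP synthase genes were therefore higher in each N_12 library than in each DMSO library. Between CAD and the CTP synthases, the estimates of the other 2 genes were near 0. DHODH, the mitochondrial dehydrogenase of the ring, had the fewest counts of the set, at 8.81 and 11.1 CPM in N_12, against 11.5 and 7.31 CPM in DMSO (0.08, interval -0.52 to 0.68). UMPS, which attaches the ribose and decarboxylates the ring, had a log2 fold change of 0.10 (interval -0.27 to 0.47).

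None of the 5 nucleoside and nucleotide kinases was called. NME2, a nucleoside diphosphate kinase that makes triphosphates, was the most abundant, with 575 and 659 CPM in N_12, against 889 and 754 CPM in DMSO. Its groups did not overlap (-0.41, SE 0.14, interval -0.74 to -0.08, edgeR adjusted p = 0.158). NME1, its close neighbour and paralogue, had 100.4 and 123 CPM in N_12, against 114 and 106 CPM in DMSO (0.02, interval -0.33 to 0.37). The read-through gene NME1-NME2, which shares 18.6% of the exon bases of NME1 and 22.9% of those of NME2, had 69.3 and 92.5 CPM in N_12, against 136 and 128 CPM in DMSO (-0.71, edgeR adjusted p = 0.0725). How reads were divided among these 3 genes is not stated, so their separate values are uncertain. CMPK1, which phosphorylates UMP and CMP, differed by -0.10 (interval -0.60 to 0.40), and the uridine kinases UCK1 and UCK2 by 0.09 (interval -0.31 to 0.49) and 0.17 (interval -0.18 to 0.52).

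Of the 8 genes that make dNTPs none was called, 3 lay above 0 and the median was -0.05. TYMS, thymidylate synthase and the target of fluorouracil metabolites, had 124 and 121 CPM in N_12, against 83.2 and 83.6 CPM in DMSO. Replicates were close and the groups apart (0.55, SE 0.13, interval 0.25 to 0.85, edgeR adjusted p = 0.0698). DESeq2 called it (adjusted p = 0.00415), and over the alternatives its adjusted p ran from 0.00415 to 0.293. On the other strand ENOSF1 covers 39.2% of TYMS exon bases, and without a stated strand setting their reads cannot be told apart. ENOSF1 had 26.6 and 25.6 CPM in N_12, against 25.1 and 25.0 CPM in DMSO. TK1, the salvage route to the same product, had 191 and 235 CPM in N_12, against 241 and 213 CPM in DMSO, with overlapping groups (-0.09, interval -0.44 to 0.26).

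The ribonucleotide reductase subunits lay above 0. RRM2, the small subunit made in S phase, had 378 and 346 CPM in N_12, against 304 and 295 CPM in DMSO (0.27, SE 0.13, interval -0.02 to 0.56, edgeR adjusted p = 0.256). RRM1, the large subunit, had 113 and 108 CPM in N_12, against 57.5 and 93.5 CPM in DMSO (0.55, interval -0.0050 to 1.11). Its DMSO libraries differed 1.63-fold from each other. RRM1 had a log2 fold change of 0.94 without DMSO replicate 2, where edgeR called it (adjusted p = 0.0305), and of 0.24 without DMSO replicate 1 (adjusted p = 0.714). Over all alternatives its adjusted p ran from 0.0305 to 0.714. The remaining genes of dTTP and dCTP supply were near 0. These were the thymidylate kinase DTYMK (-0.02), the dUTPase DUT (-0.07), the deoxycytidine kinase DCK (-0.14) and the deoxycytidylate deaminase DCTD (-0.10). Their intervals all included 0, that of DCK being the widest of them at -0.88 to 0.60. Of the dNTP hydrolases SAMHD1 had 40.5 and 41.3 CPM in N_12, against 32.6 and 30.4 CPM in DMSO (0.38, interval 0.03 to 0.73, edgeR adjusted p = 0.203). DCTPP1 had 23.3 and 26.9 CPM in N_12, against 26.1 and 23.9 CPM in DMSO (0.00, interval -0.37 to 0.37). The gene ZNF771 on the other strand covers 42.1% of its exon bases. Overlaps of GENCODE exons were sought only among genes of the deposited table. Smaller ones touched ADSL (18.9% of exon bases, same strand), SAMHD1 (10.3%, other strand) and DCK (6.17%, same strand). So did those of GART (3.55%, other strand), UCK2 (3.18%, other strand) and UCK1 (0.22%, other strand). CTPS1 and GUK1 shared no exon bases with another gene of that table.

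**Figure D2:**
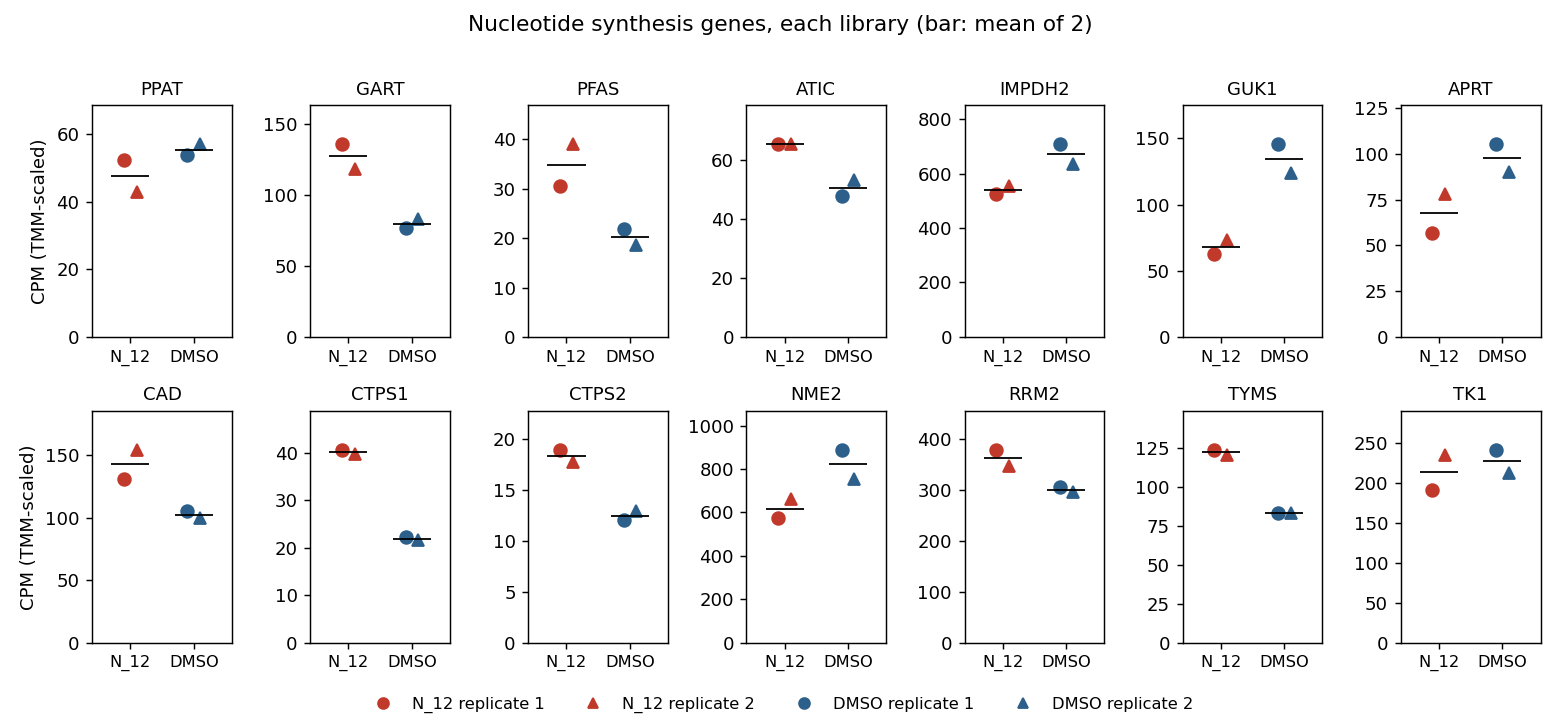
CPM in each library (points; circle replicate 1, triangle replicate 2) with the mean of 2 (bar) for 14 genes, each axis starting at 0, N_12 left of DMSO. CTPS1 sits at 40.7 and 39.7 CPM in N_12 and 22.2 and 21.6 CPM in DMSO, and GUK1 shows the opposite order. TK1 alone of the 14 has overlapping groups, but the 14 were chosen partly by smallest p. Groups were apart for 21 of all 34 members (61.8%). Over all tested genes N_12 lay wholly above DMSO for 27.9% and wholly below for 26.8%.

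Levels were compared between genes as CPM per kilobase of exon. The length was that of all annotated exons of a gene together in GENCODE release 29. It is not the length of the transcripts expressed, so the order of genes depends on this choice. On this scale NME2 was the highest, with a mean of 234 in N_12 and 312 in DMSO, followed by IMPDH2 with 195 in N_12 and 242 in DMSO. TK1 (115 in N_12, 122 in DMSO) and RRM2 (68.0 in N_12, 56.3 in DMSO) came next. The lowest was DHODH, at 1.44 in N_12 and 1.36 in DMSO. CTPS1 had a mean of 3.49 in N_12 and 1.90 in DMSO. In N_12 this mean lay above those of DHODH, UMPS (2.79) and CTPS2 (3.33), and in DMSO it lay above that of DHODH and below those of UMPS (2.61) and CTPS2 (2.26). That order in DMSO rests on the exon lengths, 11517 bases for CTPS1, 7579 for UMPS and 5510 for CTPS2. In CPM, CTPS1 lay above UMPS and CTPS2 in every library. GUK1 had a mean of 14.3 in N_12 and 28.5 in DMSO. Over all libraries the mean of GUK1 was 21.4, and the members nearest to it were RRM1 (22.3), IMPDH1 (22.7) and PRPS1 (17.9). RRM1 and PRPS1 had both N_12 libraries above both DMSO libraries, and IMPDH1 had overlapping groups. PAICS, NME1 and CMPK1, with means over all libraries of 32.4, 32.3 and 31.0, also had overlapping groups. PPAT and PFAS, consecutive enzymes of a single route with GART, had 9.48 and 4.25 over all libraries, against 13.4 for GART.

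**Figure D3:**
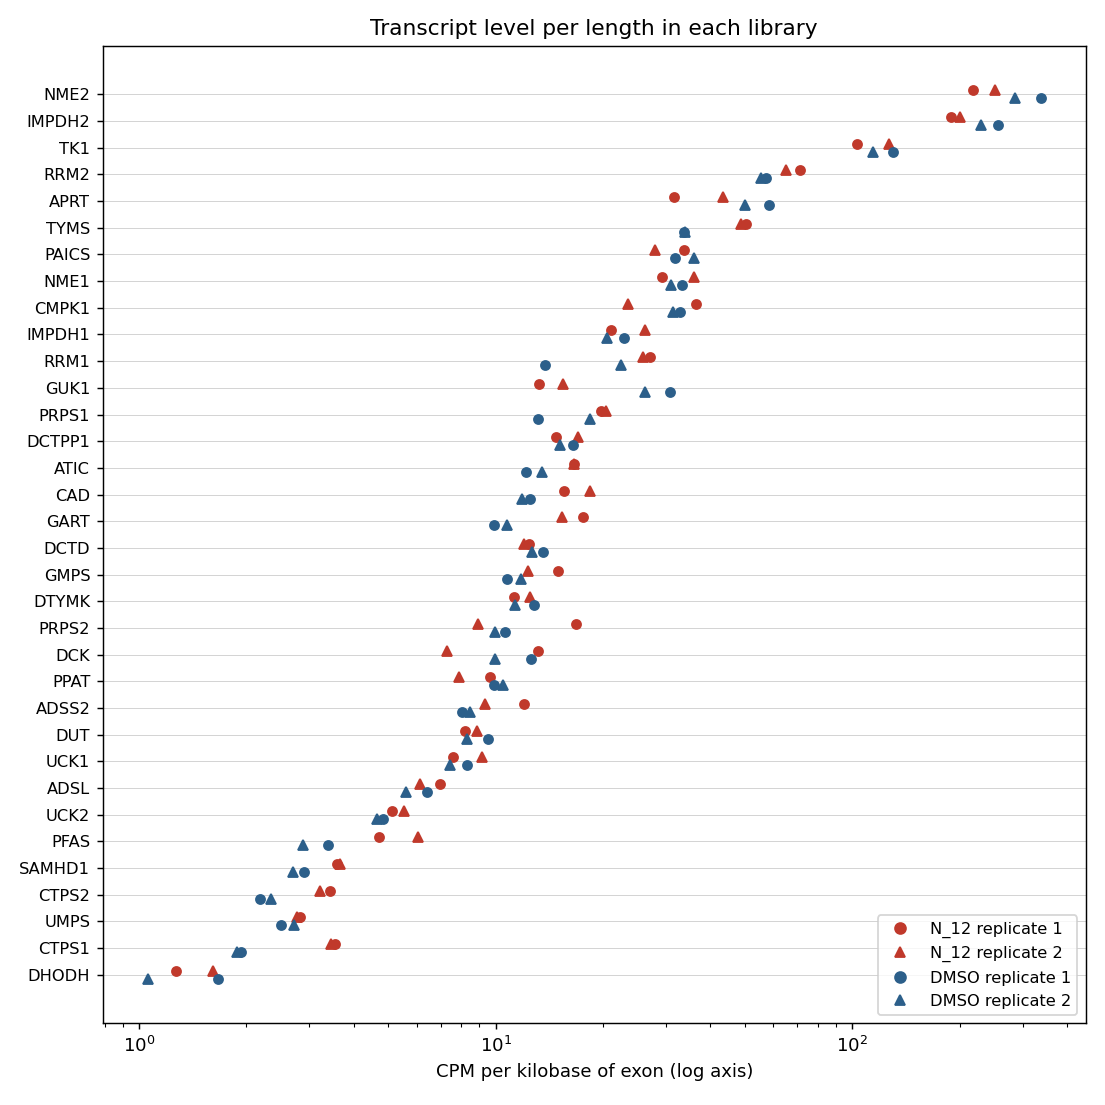
CPM per kilobase of exon (log axis) in each library for the 34 genes, ordered by their mean over all 4 libraries. Group means span from DHODH at 1.36 in DMSO to NME2 at 312 in DMSO. Single libraries span from 1.06 (DHODH, DMSO replicate 2) to 338 (NME2, DMSO replicate 1). On this scale CTPS1 lies below CTPS2 in both DMSO libraries and above it in both N_12 libraries. In CPM, without division by length, CTPS1 lies above CTPS2 in every library.

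Ratios of related genes within a library do not depend on library scaling. With 2 libraries against 2, an exact permutation test cannot give a p below 0.333, so they are given as values. The ratio of CTPS1 to CTPS2 per kilobase was 1.03 and 1.07 in N_12, against 0.886 and 0.799 in DMSO. The ratio of IMPDH2 to IMPDH1 was 8.98 and 7.64 in N_12, against 11.1 and 11.2 in DMSO. NME2 over NME1 was 7.48 and 6.98 in N_12, against 10.1 and 9.27 in DMSO. In these 3 pairs the groups did not overlap. PAICS over PPAT also did not overlap but differed little, at 3.49 and 3.55 in N_12, against 3.22 and 3.43 in DMSO. Groups overlapped for PRPS1 over PRPS2, UCK2 over UCK1 and RRM2 over RRM1, the last with 2.62 and 2.52 in N_12, against 4.16 and 2.48 in DMSO. Groups apart are common with so few libraries. Among single genes, N_12 lay wholly above DMSO for 27.9% and wholly below for 26.8% of all tested genes. The share over other gene pairs was not computed, and the NME ratio carries the uncertain division of reads given above.

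**Figure D4:**
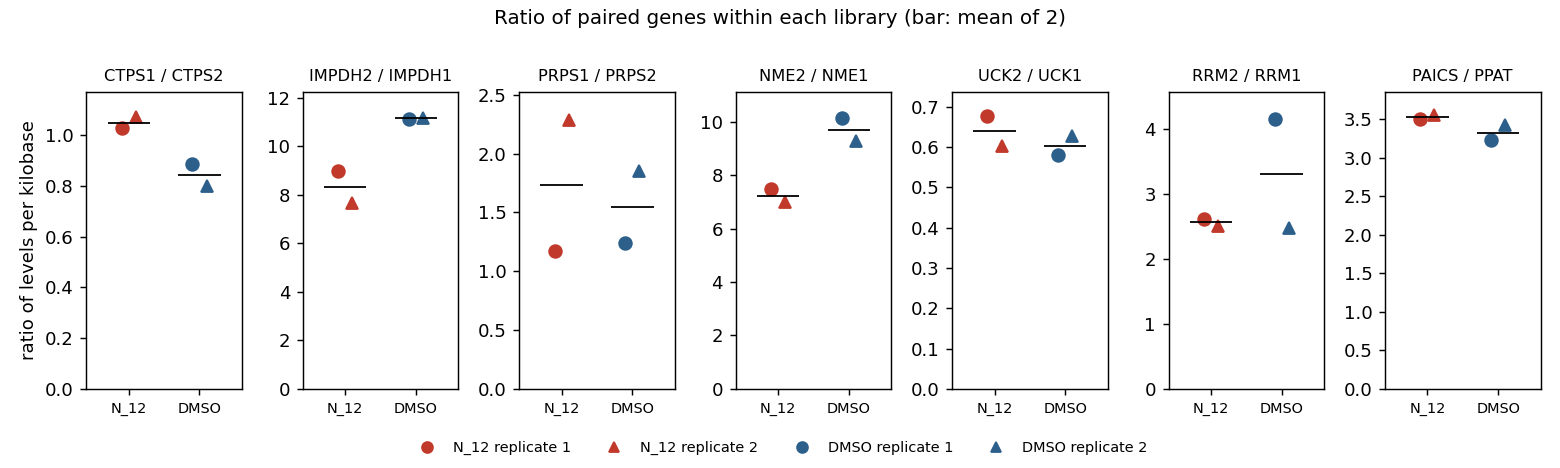
Ratio of levels per kilobase within each library (points) with the mean of 2 (bar) for 7 gene pairs, each axis starting at 0, N_12 left of DMSO. The N_12 ratios lie above DMSO for CTPS1 over CTPS2 (1.03 and 1.07 against 0.886 and 0.799). They also do so, by little, for PAICS over PPAT (3.49 and 3.55 against 3.22 and 3.43). They lie below DMSO for IMPDH2 over IMPDH1 and NME2 over NME1.

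Spread between replicates differed among the members. The higher library exceeded the lower by a median of 1.15 times between N_12 libraries and 1.10 times between DMSO libraries. In N_12 the ratio reached 1.88 for PRPS2, 1.80 for DCK and 1.55 for CMPK1, with replicate 1 the higher in each. In DMSO it reached 1.63 for RRM1 and 1.58 for DHODH. Leaving out a library moved these members most, and PRPS2 ran from -0.22 without N_12 replicate 1 to 0.71 without N_12 replicate 2. By contrast TYMS stayed between 0.52 and 0.57 and CTPS2 between 0.49 and 0.61 over the 4 fits that leave out a library. The median of the members was 0.18 without DMSO replicate 1, 0.04 without DMSO replicate 2, 0.13 without N_12 replicate 1 and 0.14 without N_12 replicate 2. In the same fits edgeR called 0, 2 (RRM1 and GUK1), 0 and 0 members, and 236, 451, 0 and 0 genes in all. That is 1.63%, 3.11%, 0% and 0% of the genes tested, with 1778, 2574, 2855 and 2763 genes at an unadjusted p under 0.05.

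The members called also varied with the settings used on all 4 libraries. Both calls stayed with DESeq2 size factors (2.28% of all genes called) and upper quartile scaling (2.28%). GART was added with library totals alone (2.16%), with no filter on low counts (2.20%) and with a filter of 1 CPM in a whole group (3.28%). The replicate block gave 4 members (6.83% of all genes), and GC and length correction gave 6 (6.42%) or, with the block, 1 (0.547%). A crossed block gave 0 members (0.199%), as did edgeR without robust dispersions (0.929%).

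**Figure D5:**
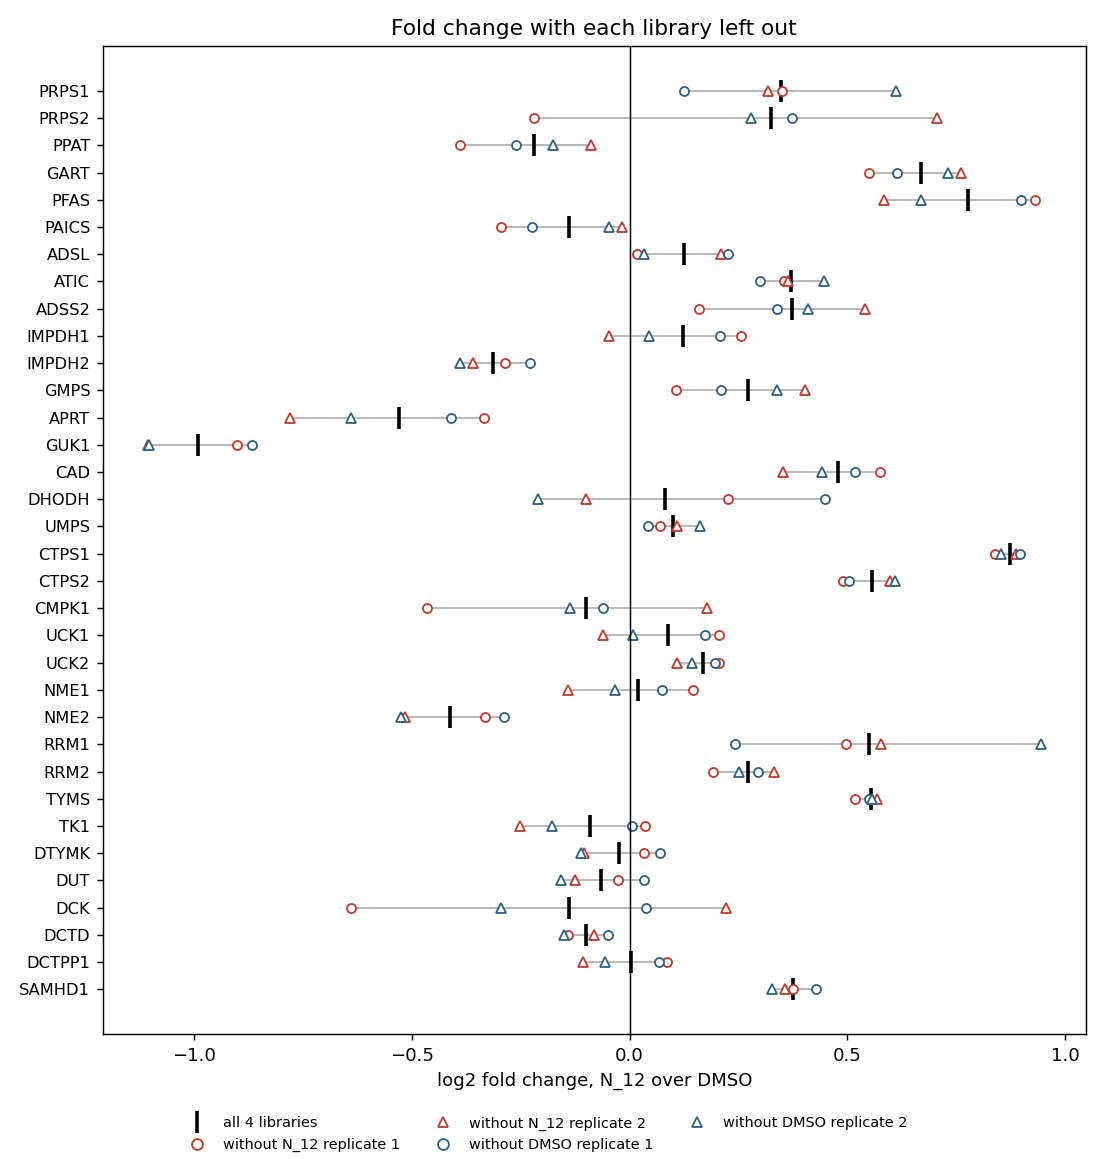
Log2 fold change of N_12 over DMSO with all 4 libraries (bar) and with each library left out (open points; red for an N_12 and blue for a DMSO library, circle for replicate 1 and triangle for replicate 2). CTPS1 stays between 0.84 and 0.90 and GUK1 between -1.11 and -0.87, while PRPS2, DCK and CMPK1 fall on both sides of 0.

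Outside the 34, 75 further genes of nucleotide metabolism were listed and 68 had enough counts. Of these 1 was called lower and 0 higher, against 2.25% of all tested genes called in either direction. Their log2 fold changes had a median of 0.05. An unadjusted p under 0.05 was reached by 14 of the 68, 9 on the higher and 5 on the lower side. Over all tested genes 21.8% reached it. Among 16 folate genes MTHFD2, a mitochondrial folate enzyme, was not called, with 384 and 346 CPM in N_12, against 240 and 248 CPM in DMSO (0.58, SE 0.13, edgeR adjusted p = 0.0622).

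Salvage, breakdown and transport genes were mixed. Of 16 tested genes of purine salvage and breakdown, 8 lay on each side of 0. NT5E, a surface enzyme that releases adenosine from AMP, had 418 and 347 CPM in N_12, against 199 and 264 CPM in DMSO (0.72, edgeR adjusted p = 0.0768). PNP, which splits purine nucleosides, had 73.2 and 86.1 CPM in N_12, against 115 and 115 CPM in DMSO (-0.53, edgeR adjusted p = 0.0954). Of 12 genes of pyrimidine salvage and breakdown 6 lay on each side, with the cytidine deaminase CDA at -0.56 and the mitochondrial thymidine kinase TK2 at 0.55 (edgeR adjusted p = 0.118 for both). Of 13 other nucleotide kinases none was called, and NME3, a further nucleoside diphosphate kinase, stood at -0.53 (edgeR adjusted p = 0.306). The 6 genes of the dNTP pool and its hydrolases had a median of -0.13, led in p by NUDT5 (0.20) and NUDT1 (-0.19). Among 5 nucleoside transporters, 4 lay above 0. The equilibrative transporter SLC29A2 had 36.8 and 46.9 CPM in N_12, against 28.1 and 25.7 CPM in DMSO (0.64, edgeR adjusted p = 0.101), and SLC29A1 had 94.6 and 101.0 CPM in N_12, against 77.3 and 72.3 CPM in DMSO (0.39, edgeR adjusted p = 0.160).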

How the data were processed

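The authors deposited whole-number counts per gene for 4 libraries, keyed by human Ensembl identifiers and not normalized. Which aligner, counter or strand mode was used is not given in the sources used here. Per the submitters' processing notes the builds are GRCm38 and mm10, which are mouse builds, so promoter coordinates are RefSeq's only. Symbols were found for 20148 of 20263 identifiers.

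The analysis used edgeR 4.0.16 under R 4.3.3, with TMM scaling and edgeR's expression filter. N_12 was set against DMSO in a quasi-likelihood model without a replicate term and with robust dispersions (Benjamini-Hochberg over 14105 genes, threshold 0.05, two-sided). CPM of single genes used TMM-scaled totals and marker sums plain totals. Standard errors came from the fold change and F statistic, and intervals are 95% intervals. Members and lists were chosen with earlier results of these data known. Values per library were given for called members, for PPAT, IMPDH2, CAD, RRM2, TYMS and TK1, and for the members of smallest p up to 14; those of other members, PAICS, ADSL, PRPS2, IMPDH1, DHODH, NME1, RRM1, SAMHD1 and DCTPP1, were added after the values were seen. Of the other lists called genes and the 2 of smallest p were named, except for 2 genes that are not reported here. Alternatives used limma 3.58.1, DESeq2 1.42.0, other scalings and filters, and offsets for GC content and length (GENCODE release 29, known for 14089 genes). On simulated data with these depths (13964 genes tested), 4, 28 and 45 of 50 genes changed 1.5-, 2- and 4-fold were called, and 22 of all 148 calls were unchanged genes, a larger share than the threshold of 0.05. Replicate libraries were not duplicates: their chi-square over its degrees of freedom was 57.2 for N_12 and 36.5 for DMSO. GENCODE names pseudogene copies for 10 members (PRPS1, PPAT, PAICS, IMPDH1, GMPS, NME1, NME2, RRM2, TYMS and DUT), whose counts are uncertain.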

Additional observations from a re-analysis of the deposited data

How the results depend on the processing

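Other scalings and filters kept both member calls. Library totals alone moved the median of the members to 0.16 and that of all genes to 0.06, and added GART, as did both other filters; 141 of its 305 calls were higher, against 116 of 317 with TMM. With the replicate block 4 members, 4 related genes and 963 genes in all (6.83%) were called. The replicate numbers pair nothing in the labels, and the deviations of same-numbered libraries were weakly negatively correlated across genes (-0.13). A crossed replicate block, chosen after seeing the data, called 0 members, 0 related genes and 28 genes. GC and length correction called 6 members (CAD, CTPS1, GART, PFAS and TYMS higher, GUK1 lower), 5 related genes and 904 genes (6.42%). With replicate block added it called 1 member (GUK1), 0 related genes and 77 genes. Neither limma-voom nor edgeR without robust dispersions called a member or a related gene, and each called 131 genes (0.929%). DESeq2 called 5 members (GUK1 lower), 8 related genes and 1225 genes (8.68%). Members at an unadjusted p under 0.05 numbered 10 to 15 in these fits, and the number of all genes at that p varied too. It was lowest with the replicate block (10 members, 2783 of 14105 genes). It was highest with GC and length correction (14 members, 4224 of 14089 genes), and with replicate block added it was 3990 (15 members).

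Leaving out each library gave 0 to 2 members called, 0 to 2 related genes, 0 to 451 genes and medians of 0.038 to 0.18; the lone library of a group was assumed to vary like the others. The sign changed, always for genes not called, for PRPS2 (-0.22 to 0.71), IMPDH1 (-0.047 to 0.26), DHODH (-0.21 to 0.45), CMPK1 (-0.47 to 0.18), UCK1 (-0.061 to 0.20), NME1 (-0.14 to 0.14), TK1 (-0.25 to 0.036), DTYMK (-0.11 to 0.071), DUT (-0.16 to 0.033), DCK (-0.64 to 0.22) and DCTPP1 (-0.11 to 0.086). On 4 libraries DTYMK changed sign with library totals alone (0.023), GC and length correction (0.0197) and with replicate block added (0.0199). DCTPP1 did so with DESeq2 size factors (-0.0048), the filter of 1 CPM in a whole group (-0.0016) and DESeq2 (-0.0049). The cause was not tested.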
